A study of Mus musculus with 30 samples.

Results

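The data were expression arrays of the olfactory epithelium of wild type mice, compared at 8 h after bilateral olfactory bulbectomy and at 0 h. The 8 h group held 3 arrays and the 0 h group 3 arrays, chosen by genotype and time in their titles, which makes 6 of the 30 arrays of the series, and all genes on them were considered. The mice of both groups were wild type, 6 weeks old, and differed by label only in time. The other arrays came from wild type mice at 2, 16 and 48 h and, at the same 5 times, from mice labelled mutant for SR-A, a scavenger receptor of macrophages whose gene is Msr1, with 3 arrays each. Total RNA of microdissected epithelium was labelled with biotin and hybridised to Affymetrix MG-U74Av2 arrays, which hold 12488 probe sets. Whether the 0 h mice had been operated on is not stated. The labels name 3 mice per genotype and do not tie arrays to mice, so a p-value measures only the spread between arrays, which may be technical in part. In bulk tissue, fewer cells of a type and less RNA per cell cannot be told apart.

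Bulbectomy removes the olfactory bulbs, the brain target of the axons of olfactory sensory neurons. Neurons cut off from their target die by apoptosis over the following days, macrophages enter and clear them, and basal stem cells divide and replace them. The hours before that are known for the first signals of injury, such as chemokines that call in monocytes, acute phase proteins, and stress genes of epithelial and supporting cells. The question addressed here was which transcripts had moved by 8 h.

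Values are signal intensities, with those under 113.7 raised to that floor before log2 was taken. A change is the log2 difference of the means of 3 arrays each ± its standard error (SE). P-values came from limma's moderated test over 6968 tested probe sets with Benjamini-Hochberg adjustment, and a probe set passed at an adjusted p under 0.05. At 8 h, 14 probe sets passed, 0.201% of those tested, with 12 rising (0.172%) and 2 falling (0.0287%). They stood for 12 genes, of which 10 rose and 2 fell. The genes that rose were the chemokine gene Ccl2, the secreted defence and acute phase genes Slpi, Lcn2 and Serpina3n, the membrane phospholipid genes Anxa1 and Plscr1, the polyamine enzyme gene Sat1, the stress gene Ndrg1, and Pdzk1ip1 and Eif1a. The genes that fell were Odf2 and Wnk2. These calls rest on a spread estimated over all 30 arrays, and with only the 6 arrays fitted 0 passed (limma, 531 at an unadjusted p under 0.05). In all 14 probe sets the 3 arrays at 8 h did not overlap the 3 at 0 h, and over all tested probe sets 13% had no overlap.

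The 250 bases before the start site are printed for the 5 genes with the smallest p that RefSeq's promoter table (GRCm38.p6) holds, as the leading calls of the comparison. Of these Sat1, Plscr1, Anxa1 and Slpi rose and Odf2 fell. Each is written 5′ to 3′ on the strand of the gene, and capitals mark matches to the motifs named after them.
Sat1, chrX:155216450-155216699, minus strand: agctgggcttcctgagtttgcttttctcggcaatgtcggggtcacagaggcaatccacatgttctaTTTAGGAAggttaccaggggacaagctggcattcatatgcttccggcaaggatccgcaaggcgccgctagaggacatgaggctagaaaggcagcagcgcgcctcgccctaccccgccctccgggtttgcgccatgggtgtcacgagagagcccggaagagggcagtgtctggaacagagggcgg
Plscr1, chr9:92249944-92250193, plus strand: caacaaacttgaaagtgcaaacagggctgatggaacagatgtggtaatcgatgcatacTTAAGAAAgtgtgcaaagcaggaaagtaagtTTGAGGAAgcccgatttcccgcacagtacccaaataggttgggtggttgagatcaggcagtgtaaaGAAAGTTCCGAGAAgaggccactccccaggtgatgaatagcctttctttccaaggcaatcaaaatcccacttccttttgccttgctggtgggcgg
Anxa1, chr19:20390672-20390921, minus strand: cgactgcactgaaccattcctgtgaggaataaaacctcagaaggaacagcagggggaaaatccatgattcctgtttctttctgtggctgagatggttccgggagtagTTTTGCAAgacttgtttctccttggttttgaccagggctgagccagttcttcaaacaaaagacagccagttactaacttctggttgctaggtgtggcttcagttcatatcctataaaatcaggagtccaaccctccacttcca
Slpi, chr2:164356508-164356757, minus strand: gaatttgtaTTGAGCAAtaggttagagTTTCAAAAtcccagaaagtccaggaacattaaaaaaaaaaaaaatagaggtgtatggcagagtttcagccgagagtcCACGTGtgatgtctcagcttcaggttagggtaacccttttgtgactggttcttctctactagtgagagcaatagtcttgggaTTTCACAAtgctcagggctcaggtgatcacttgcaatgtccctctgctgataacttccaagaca
Odf2, chr2:29889470-29889719, plus strand: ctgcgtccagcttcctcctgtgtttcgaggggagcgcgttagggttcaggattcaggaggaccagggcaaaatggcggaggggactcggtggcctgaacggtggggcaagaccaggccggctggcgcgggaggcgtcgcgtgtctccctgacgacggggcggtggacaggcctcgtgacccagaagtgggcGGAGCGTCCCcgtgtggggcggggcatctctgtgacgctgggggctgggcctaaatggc
For Odf2 this is the first of 4 start sites in the table. The table held a promoter for 9 of the 12 genes. The letters searched on both strands were TTNNGNAA for C/EBP factors, TTCNNNGAA for STAT factors, TGANTCA for AP-1, GAANNTTC for the heat shock element, ACANNNTGT for the glucocorticoid receptor element, CACGTG for the E-box, and the kappaB motif. C/EBP letters were present in 7 of the 9 promoters, 6 of the 7 of genes that rose and 1 of the 2 of genes that fell (Wnk2), and in 36.9% of all 27025 promoters of this length. Plscr1 held them at bases -192 to -185 and -161 to -154 from the start site, Slpi at -241 to -234, -223 to -216 and -64 to -57, Anxa1 at -143 to -136 and Sat1 at -184 to -177. STAT letters were present in 1 of the 9, that of Plscr1 at -90 to -82, against 7.18% of all promoters, and overlapped its heat shock letters, which 6.78% of all promoters held. E-box letters were in 2 (6.05% of all), glucocorticoid receptor letters in 2 (5.91%), kappaB letters in 1 (7.01%) and AP-1 letters in 0 (6.87%). These matches describe the printed letters and are not binding sites shown by these data.

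The tissue carried markers of its neurons, supporting cells and glands at both times, and not all of those of its basal cells. Omp, the marker of mature olfactory sensory neurons, gave a signal of 29569 ± 2280 (SD, n = 3) at 0 h and 30246 ± 3955 (SD, n = 3) at 8 h. Gap43, of immature neurons, gave 8866 ± 1844 and 7899 ± 1501, and the gland product Obp1a 41003 ± 1971 and 41379 ± 5643. The basal cell keratins Krt5, Krt14 and Krt15 were at the floor on all 6 arrays, while Trp63 of the same cells gave 751 ± 40.2 and 820 ± 116. Bone and blood were present too, with Ibsp at 6262 ± 1305 and 3883 ± 1184 and the haemoglobin gene Hba-a1 at 38119 ± 2666 and 29608 ± 3242. Msr1, dim in wild type at 139 ± 49.1 and 131 ± 46, was brighter in the arrays labelled mutant, at 515 ± 54.9 at 0 h, so its transcript does not check the genotype labels.

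The third 8 h array was closer to the 0 h arrays than to its own group by mean correlation. Over the tested probe sets its log2 signals had a mean correlation of 0.970 with the 0 h arrays and 0.961 with the other 8 h arrays, whereas replicate 1 had 0.964 and 0.965 and replicate 2 had 0.962 and 0.966. Its Gapdh control difference between 3′ and 5′ probe sets, which reads RNA quality, was -0.31 (log2), the lowest of the 6 arrays. It was near those of 0 h replicate 2 (-0.26) and 8 h replicate 2 (-0.24), and the highest of the 6 was -0.12. The part of RNA quality in the results was not tested. Without replicate 3, 93 probe sets passed, 1.33% of those tested, with 49 up and 44 down, and all 14 named above were among them. Leaving out any other array lowered the count, to 2, 0 and 10 without 0 h replicate 1, 2 or 3 and to 3 and 4 without 8 h replicate 1 or 2. Without 0 h replicate 2, Sat1 and Plscr1 each had an adjusted p of 0.0517, and the genes described next hold as calls only with that array included. In 9 of the 14 probe sets replicate 3 had the smallest change of the 3 arrays. Over all tested probe sets the array nearest to the 0 h mean was replicate 1 in 34.3%, replicate 2 in 29.3% and replicate 3 in 36.4%, with median distances of 0.16, 0.18 and 0.16 (log2), so over all probe sets replicate 3 was about as far from 0 h as replicate 1. Without it the changes were 1.93 for Slpi, 1.77 for Sat1, 1.56 for Serpina3n, 1.33 for Ndrg1, 0.54 for Pdzk1ip1, 0.46 for Eif1a, -1.18 for Odf2 and -0.67 for Wnk2, and between 0.96 and 1.75 for the 3 probe sets of Anxa1.

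**Figure D1:**
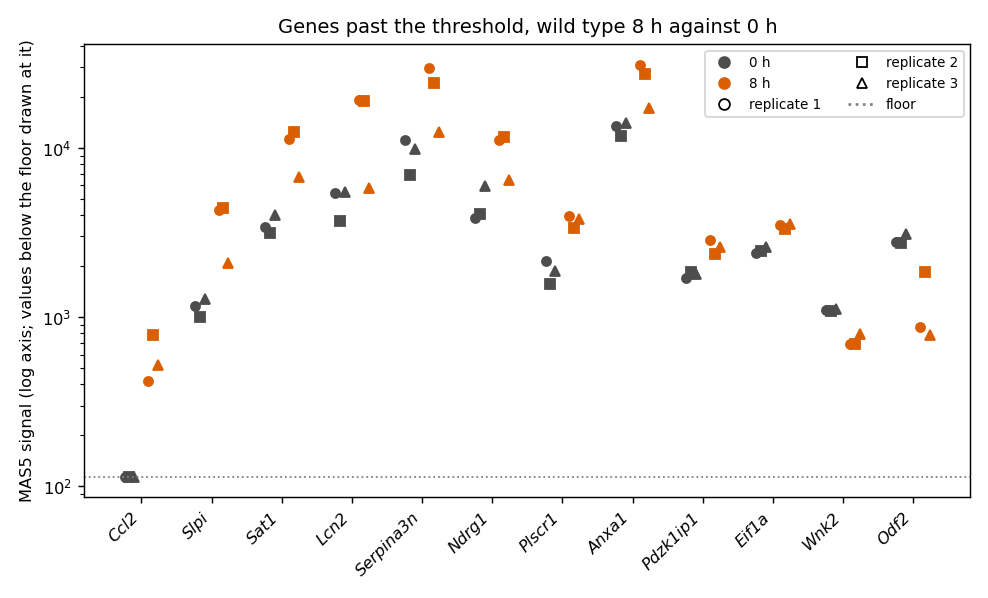
Signal on a log axis of the 12 genes past the threshold, 1 probe set each, on the 3 arrays at 0 h (grey) and the 3 at 8 h (orange), with the shape of a point giving the replicate and the dotted line the floor of 113.7. Replicate 3 at 8 h lies close to the 0 h points for Lcn2 and Ndrg1 and beside the other 8 h points for Ccl2, Plscr1, Eif1a and Pdzk1ip1.

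Ccl2 (chr11:82035577-82037452, GRCm38.p6), the chemokine that draws monocytes out of the blood, had the largest rise among the genes that passed. Its signals were 19.1, 81.2 and 16.6 at 0 h, all under the floor, and 418, 778 and 518 at 8 h. All 3 arrays at 8 h were above the floor, replicate 3 included. The rise was at least 4.86-fold (adjusted p = 0.0109), since the 0 h level is only bounded by the floor. Without 8 h replicate 3 the log2 change of 2.28 ± 0.39 became 2.33.

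Slpi and Lcn2 encode secreted proteins of mucosal defence, an inhibitor of neutrophil proteases and a protein that keeps iron from bacteria. Slpi signals were 1161, 999 and 1281 at 0 h and 4308, 4413 and 2081 at 8 h. Slpi rose by 1.58 ± 0.28 (adjusted p = 0.0109), with replicate 3 lowest of the 8 h arrays and still above all 0 h arrays. A brighter Slpi probe set gave 0.47 and did not pass. Lcn2 (chr2:32384637-32387739) signals were 5422, 3686 and 5459 at 0 h and 19246, 18944 and 5809 at 8 h. In replicate 3 Lcn2 lay just above the highest 0 h array, while the other arrays stood far above it. Lcn2 rose by 1.43 ± 0.28 (adjusted p = 0.0179), or by 2.00 without replicate 3, and a much dimmer Lcn2 probe set gave 0.07. Serpina3n (chr12:104406646-104414334), an acute phase protease inhibitor, gave 11121, 6862 and 9784 at 0 h and 29484, 24279 and 12341 at 8 h. Its rise of 1.19 ± 0.25 was the last to pass (adjusted p = 0.0494), and the adjusted p was 0.0779 with the replicate number as a block.

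Anxa1, which encodes a phospholipid-binding protein known for limiting inflammation, rose on all 3 of its probe sets that were tested and passed. The brightest of these gave a change of 0.90 ± 0.16 (adjusted p = 0.0109), and the others 1.26 ± 0.26 and 0.75 ± 0.16 (adjusted p = 0.0312 and 0.0407). On the probe set with the largest change the signals were 3881, 3022 and 3842 at 0 h and 11769, 12111 and 4387 at 8 h, with replicate 3 again near the 0 h arrays. Plscr1, a phospholipid scramblase gene also induced by interferon, gave 2132, 1579 and 1868 at 0 h and 3951, 3337 and 3781 at 8 h. The 3 arrays at 8 h were close to each other. Plscr1 rose 1.99-fold (adjusted p = 0.00293), and its log2 change without replicate 3 was 0.98.

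Sat1, the rate-limiting enzyme of polyamine breakdown, gave 3388, 3135 and 3983 at 0 h and 11306, 12460 and 6757 at 8 h. Every 8 h array lay above every 0 h array, with replicate 3 lowest. Sat1 rose by 1.50 ± 0.22 (adjusted p = 0.00293), the smallest adjusted p of the comparison together with Plscr1. Odc1, the first enzyme of polyamine synthesis, had a change of -0.08. Ndrg1 (chr15:66929318-66969641), a gene induced by hypoxia and other stress, gave 3850, 4067 and 5915 at 0 h and 11130.2, 11578 and 6460.3 at 8 h. It rose by 1.06 ± 0.19 (adjusted p = 0.0109), although replicate 3 lay just above the highest 0 h array. A second Ndrg1 probe set gave 0.76 ± 0.22 (adjusted p = 0.195) with overlapping arrays, and passed at 1.16 without replicate 3.

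The remaining rises were small and even. Pdzk1ip1 (chr4:115088708-115093894), a small membrane protein gene of epithelia, gave 1709, 1850 and 1808 at 0 h and 2854, 2363 and 2593 at 8 h. It rose by 0.54 ± 0.10 (adjusted p = 0.0166). Arrays labelled mutant at 0 h, at 3074 ± 360, were already above wild type at 8 h, at 2603 ± 246 (SD, n = 3 each). Eif1a, a translation initiation factor gene, gave 2402, 2462 and 2600 at 0 h and 3490, 3331 and 3532 at 8 h. It rose by 0.47 ± 0.09 (adjusted p = 0.0166), and its second probe set gave 0.21 and did not pass.

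Odf2, which encodes a protein of sperm tail fibres and of the appendages of centrioles, gave 2761, 2757 and 3105 at 0 h and 872, 1845 and 787 at 8 h. Replicate 2 was the one nearest to 0 h. Odf2 fell by 1.41 ± 0.25 (adjusted p = 0.0109), and the level of the 3 arrays labelled mutant at 0 h, 1256 ± 104 (SD, n = 3), was near that of wild type at 8 h, 1168 ± 588 (SD, n = 3). A dim Odf2 probe set that was not tested had a difference of -0.62. Wnk2 (chr13:49036302-49148574), a kinase gene of ion transport, gave 1095, 1089 and 1118 at 0 h and 689, 692 and 799 at 8 h. It fell by 0.60 ± 0.12 (adjusted p = 0.0179), with no overlap, while its second probe set gave -0.39 and did not pass. Its level in the arrays labelled mutant at 0 h, 772 ± 73.9, was also near that of wild type at 8 h, 727 ± 62.6 (SD, n = 3 each).

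Among genes that did not pass, the nearest were a cytokine and a cytokine receptor. Osmr, the receptor subunit for oncostatin M, gave 989, 562 and 810.0 at 0 h and 3137, 2292 and 1115 at 8 h, a change of 1.38 ± 0.30 (adjusted p = 0.0505). Csf3, the granulocyte growth factor, gave 781, 509 and 828 at 0 h and 2915, 2317 and 1209 at 8 h, a change of 1.55 ± 0.35 (adjusted p = 0.0697). In both genes replicate 3 was the lowest 8 h array and lay above every 0 h array. Of the 6320 tested probe sets with 1 gene, 112 had no overlap and an unadjusted p under 0.01 (limma) without passing. Of these, 38 were higher and 74 lower at 8 h. Over all 6968 tested probe sets, 543 had an unadjusted p under 0.05.

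The other high values of that kind included interferon-induced GTPases, an epithelial junction gene and immunoglobulin genes. The GTPase genes Gbp2, Ifi47 and Iigp1 had changes of 1.38 ± 0.33, 1.17 ± 0.28 and 1.06 ± 0.26, all with adjusted p between 0.102 and 0.119. Cldn4, a tight junction protein gene, gave 1825, 1129 and 1487 at 0 h and 4915, 6538 and 3784 at 8 h, a change of 1.77 ± 0.47 (adjusted p = 0.156). All 3 arrays at 8 h were above all 3 at 0 h. Bcl3, an IkappaB family member, had 1.65 ± 0.49, and Cotl1, an actin-binding protein gene, 1.17 ± 0.39. The antibody genes Ighm and Jchain had 2.31 ± 0.67 and 1.54 ± 0.49. The Ighm value is a lower bound, since its 0 h arrays were all under the floor. For Ighm the 8 h signals were 882, 943 and 217 against 69.9 to 79.2 at 0 h, and its other tested probe sets gave 0.52 and -0.23, so the probe sets of this gene disagree.

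The low values of that kind were led by Slc27a1, a fatty acid transporter gene, at 787, 821 and 720.4 at 0 h and 268, 44.4 and 391 at 8 h, with 1 array under the floor. Its change was -1.76 ± 0.49 (adjusted p = 0.18), with that array set to the floor. Car3, a carbonic anhydrase gene of fat and muscle, had -1.11 ± 0.30, Vamp3, a vesicle fusion gene, -1.10 ± 0.29, and Gpcpd1, a lipid phosphodiesterase gene, -1.09 ± 0.33. The growth-induced matrix gene Ccn1 had -1.09 ± 0.36, the collagen gene Col3a1 -1.08 ± 0.26, and the bone matrix gene Omd -0.98 ± 0.28. Tcf25, Rad1 and Pip4k2c had -1.02 ± 0.27, -0.93 ± 0.27 and -0.92 ± 0.28. None of these passed, the lowest adjusted p being 0.102 for Col3a1.

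**Figure D2:**
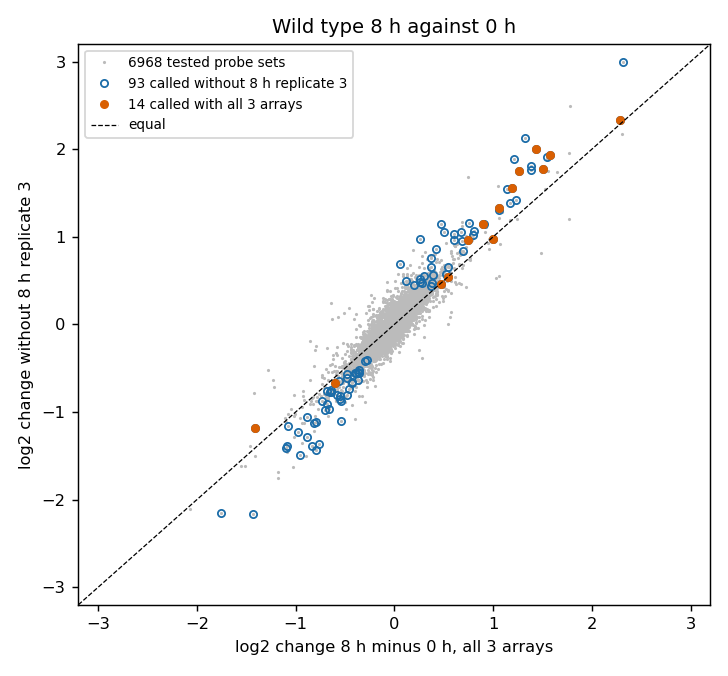
Log2 change from 0 h to 8 h of the 6968 tested probe sets with all 3 arrays at 8 h (horizontal) and without replicate 3 (vertical). Filled circles are the 14 that passed with all arrays, open circles the 93 that passed without replicate 3, and the dashed line marks equal values, so circles farther from 0 than the line had a smaller change in replicate 3.

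Among the genes that passed only without replicate 3, those with the largest changes included several in which that array lay at or near the 0 h range. Leaving out an array favours such genes, so their layout is a description. Nr4a1, an immediate early orphan receptor gene, gave 3456, 3902 and 3810.3 at 0 h and 929, 750.1 and 3740.3 at 8 h. Replicate 3 was inside the 0 h range and the other arrays were far under it. Its change was -1.43 ± 0.42 (adjusted p = 0.215) with all arrays and -2.16 (adjusted p = 0.00116) without replicate 3. Sprr1a, a cornified envelope gene induced in wounded epithelium and axotomised neurons, gave 1105, 760.4 and 1329.9 at 0 h and 4942, 4177 and 845 at 8 h. Here too replicate 3 lay among the 0 h arrays, and the change was 1.32 ± 0.49 with it and 2.13 (adjusted p = 0.00889) without it. Calb1, which encodes a calcium-binding protein, gave 938, 1413 and 1415 at 0 h and 387, 599 and 1653 at 8 h, so that replicate 3 was the highest of the 6 arrays. Its change was -0.76 ± 0.33 with replicate 3 and -1.36 (adjusted p = 0.00745) without it.

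Fmo5, a monooxygenase gene, H1f2, a linker histone gene, and Bmp7, a growth factor gene, had the same layout. Without replicate 3 they gave -1.49, -1.39 and -1.43 (adjusted p = 0.00179, 0.00609 and 0.00839), and with it -0.96, -0.83 and -0.79. In replicate 3 Fmo5 read 2257, H1f2 7255 and Bmp7 627, each at or above the middle 0 h array. Osmr (1.81), Csf3 (1.91), Gbp2 (1.76) and Ifi47 (1.38) passed without replicate 3, as did Slc27a1 (-2.15), Vamp3 (-1.41) and Gpcpd1 (-1.39), with adjusted p from 0.00104 to 0.0475. Slc2a1, the glucose transporter gene, gave 4567, 5808 and 2347 at 8 h against 2240.4 to 2773 at 0 h, a change of 0.67 ± 0.22 that became 1.05 (adjusted p = 0.00387) without replicate 3.

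Gene lists were described with 1 probe set a gene, over the 5396 genes tested. In that form 9 genes rose and 1 fell, 0.167% and 0.0185%, since the brightest probe sets of Slpi and Wnk2 did not pass, and at an unadjusted p under 0.05 the shares were 3.09% higher and 4.86% lower. Genes without overlap made up 5.47% in the higher and 7.67% in the lower direction. The median change over all genes was -0.02, with 46.2% above 0. Lists were read beside these shares and not tested. Without 8 h replicate 3, 37 genes passed in each direction, 0.686% each, and the medians of the chemokine, cytokine, matrix and bone lists named next were 0.60, 0.25, -0.36 and -0.61.

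The chemokine and cytokine lists had medians above that of all genes. Of 8 chemokine genes 1 passed, Ccl2, and 7 were above 0, with a median of 0.38. The neutrophil-attracting Cxcl2 gave 101.3, 145 and 75.4 at 0 h and 300, 267 and 923 at 8 h, a change of 1.77 ± 0.64 (adjusted p = 0.43), and Cxcl1 gave 1.06 ± 0.57. For Cxcl1 and Cxcl2 replicate 3 was the highest 8 h array, whereas for Lcn2 and Serpina3n it was the lowest. Of 21 cytokine and receptor genes 0 passed and 8 had an unadjusted p under 0.05, all higher, among them Osmr, Csf3, Il1b (1.09 ± 0.40), the feedback inhibitor Socs3 (0.77 ± 0.23) and the shared receptor subunit Il6st (0.26 ± 0.11). The list's median was 0.22. Of 14 acute phase and defence genes 2 rose, Lcn2 and Serpina3n, with a median of 0.13 (-0.06 without 0 h replicate 2 and -0.08 without 8 h replicate 1), and Saa3, the serum amyloid of tissues, had 0.25 ± 0.35. Of 19 genes of the NF-kappaB and TNF pathway 0 passed, with a median of 0.05. Of 26 interferon-stimulated genes 0 passed and 19 were above 0, with a median of 0.13, and without replicate 3 there were 3 that passed.

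No marker on the leukocyte lists passed with all arrays, and Ccr2 and Ighm passed without 8 h replicate 3. Of 8 neutrophil markers 7 were below 0, with a median of -0.39 and changes from -2.07 to 0.12. The medians by 8 h array were 0.03, -0.63 and -0.61, so replicate 1 did not share the lower level. Ngp and Camp of neutrophil granules gave 792, 2188 and 122 and 1946, 4598 and 925 at 0 h, a wide spread, and at 8 h 130 to 148 and 822 to 1216. Of 18 macrophage markers 0 passed, with a median of 0.14 (-0.14 without 8 h replicate 1) and changes from -0.30 to 0.57. Ccr2, the receptor of monocytes for Ccl2, gave 346.5, 249 and 289 at 0 h and 939.8, 442.4 and 159 at 8 h, a change of 0.47 ± 0.37 that became 1.14 (adjusted p = 0.0416) without replicate 3. Its replicate 3 was the lowest of the 6 arrays. Cd68 of macrophage lysosomes gave 1291 ± 79.1 at 0 h and 1066 ± 162 at 8 h (SD, n = 3 each). Cd3d, Cd3e and Cd3g of T cells were at the floor on all 6 arrays, as were the mast cell proteases Cpa3 and Mcpt4. Of the 12 mast cell markers 4 were measured and 0 passed, with changes from -0.34 to 0.16. These were Tpsb2 (1186 ± 112 at 0 h and 991 ± 106 at 8 h), Hdc (4784 ± 224 and 5350 ± 662), Kit (1050 ± 57 and 832 ± 50.2) and Gata2 (1142 ± 111 and 1206 ± 254; SD, n = 3 each). Of 7 B and plasma cell genes 0 passed and 4 had an unadjusted p under 0.05, all higher, and without replicate 3 Ighm passed at 3.00 (adjusted p = 0.0315). Igha read 2139, 2386 and 517 at 8 h against 314 to 565 at 0 h, so 2 of the 3 arrays carried it, and its part in other results was not tested. In wild type Ighm gave 852 ± 178 at 2 h and 62.4 ± 4.39 at 48 h, and Igha 1840 ± 401 and 246 ± 23.8. Arrays labelled mutant gave 3296 ± 1696 and 6026 ± 2214 at 0 h (SD, n = 3 each), so high levels were not confined to 8 h.

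Neuronal lists stayed near the median of all genes. Of 14 genes of mature olfactory sensory neurons 0 passed, with a median of 0.02, of 22 genes of immature neurons 0 (median -0.12), of 19 synaptic vesicle genes 0 (-0.10) and of 19 progenitor genes 0 (-0.04). Of 26 apoptosis genes 0 passed, with a median of -0.01 and changes from -0.27 to 0.30. Of 36 cell cycle genes 0 passed, 29 were below 0, and the median was -0.13. The replication genes Pola1, Cdt1, Mcm3 and Mcm2 had -0.41 ± 0.17, -0.35 ± 0.15, -0.29 ± 0.13 and -0.29 ± 0.11. Pold2, a DNA polymerase subunit gene, went the other way at 0.52 ± 0.28, the highest change of the list. Among 21 cilium and axoneme genes Odf2 was the 1 that fell, with a list median of 0.00.

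Of 21 epithelial injury and squamous genes 0 passed, 16 were above 0, and the median was 0.22, or 0.48, -0.00 and 0.19 by 8 h array, so that replicate 2 did not share it. Plat, the tissue plasminogen activator, gave 8531, 6667 and 8860 at 0 h and 12189, 14850.0 and 13729 at 8 h, a change of 0.77 ± 0.18 (adjusted p = 0.0877) that was nearly even over the 3 arrays. The sustentacular keratins Krt8 and Krt18 had 0.40 ± 0.14 and 0.38 ± 0.11, in a sustentacular cell list of 19 with a median of 0.03, 10 genes above 0 and 9 below, and Krt18 passed at 0.47 (adjusted p = 0.0492) without replicate 3. Of 17 annexin and S100 genes Anxa1 alone passed, of 5 polyamine genes Sat1 alone, and of 24 hypoxia and glycolysis genes Ndrg1 alone, with list medians of 0.12, 0.06 and 0.00. Of 37 lysosomal genes 0 passed, with a median of -0.03. At an unadjusted p under 0.05, 2 were higher and 6 lower, and 4 higher and 10 lower had no overlap. The cysteine protease Ctsl had 0.69 ± 0.16 (adjusted p = 0.102) and passed at 0.84 (adjusted p = 0.0155) without replicate 3, while the proteases Ctse and Ctsk had -0.51 ± 0.17 and -0.47 ± 0.22.

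Immediate early and heat shock genes were not uniformly higher. Of 30 immediate early genes 0 passed, 20 were below 0, and the median was -0.10, from Nr4a1 at -1.43 to Ier3 at 0.92 ± 0.29. Atf3 gave -0.89 ± 0.29 and Fos -0.33 ± 0.33. Per1, a clock gene also induced by glucocorticoids, read 763, 831 and 2751 at 8 h against 2030 to 2512 at 0 h, another gene for which replicate 3 was not below the 0 h level. Of 22 heat shock genes 0 passed, with a median of -0.03. Hspa1a, the inducible Hsp70, read 5769, 5897 and 16558 at 0 h and 10849, 6812 and 2050 at 8 h, so that its change of -0.63 ± 0.46 became 0.06 without 8 h replicate 3.

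The matrix and bone lists had medians below that of all genes. Of 39 matrix and protease genes 0 passed, 35 were below 0, 16 had an unadjusted p under 0.05 in that direction, 16 had no overlap, and the median was -0.30. The fibrillar collagens Col3a1, Col5a2 and Col1a2 had -0.85 ± 0.22, -0.84 ± 0.22 and -0.68 ± 0.22 on their brightest probe sets, and the collagen-binding Sparc -0.69 ± 0.20. Col1a2 read 28525, 30249 and 22849 at 0 h and 18067, 13698 and 19418 at 8 h, with no overlap and with replicate 3 close to the others. The list medians by 8 h array were -0.28, -0.45 and -0.24, so replicate 3 did not stand apart here. Without it Col5a1 passed at -0.57 (adjusted p = 0.0315) and Thbs2 at -1.13 (adjusted p = 0.0265). Of 11 bone and cartilage genes all were below 0, with a median of -0.58 and 0 that passed, and Acp5 of osteoclasts and Alpl of osteoblasts had -0.76 ± 0.28 and -0.58 ± 0.21. The amount of bone and connective tissue in each dissection was not measured, and its part in these values was not tested.

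**Figure D3:**
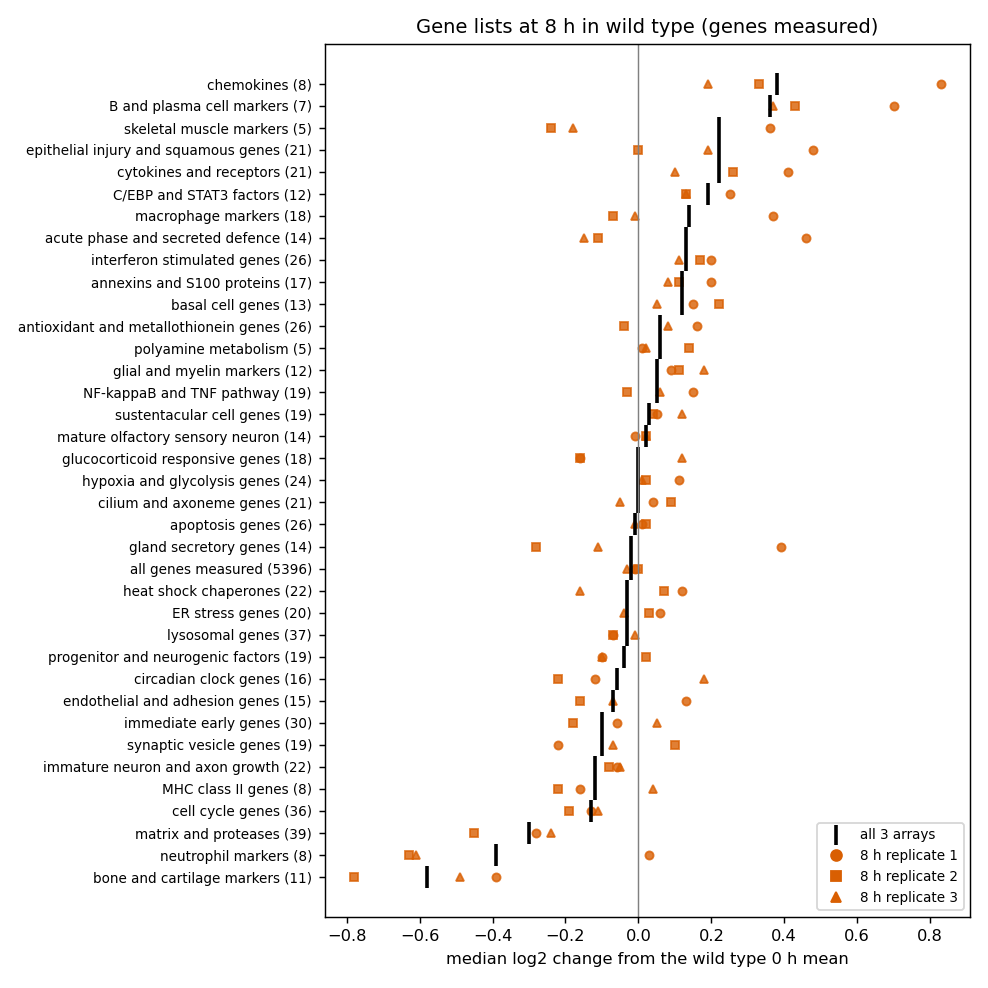
Median log2 change from the 0 h mean over the genes of each list with at least 5 measured genes, with the number measured in parentheses. Black bars are the medians over all 3 arrays at 8 h and orange points those of the single arrays by replicate. Matrix (-0.30) and bone genes (-0.58) lie to the left in every array, and the chemokine median is 0.38.

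Arrays labelled mutant at 8 h and 0 h share no array with the wild type comparison and were set beside it. In them 133 probe sets passed at 8 h, 1.91% of those tested, 90 up and 43 down. Of the 14 that passed in wild type, 10 passed in the same direction in the mutant arrays. Of the 90 that rose in the mutant arrays, 75 were above 0 in wild type, where 46.2% of all probe sets were, and 10 passed, or 28 without replicate 3. Their median change was 0.80 in the mutant arrays and 0.29 in wild type. By wild type array the median was 0.50 in replicate 1, 0.44 in replicate 2 and 0.04 in replicate 3, and 79, 79 and 49 of the 90 were above 0. Of the 43 that fell in the mutant arrays, 32 were below 0 in wild type, where 53.8% of all were, and 0 passed, or 10 without replicate 3. Their wild type medians by array were -0.44, -0.40 and 0.09. Replicate 3 was the lowest of the 3 wild type 8 h arrays in 72 of the 90 and the highest in 34 of the 43, and over all tested probe sets it was the lowest in 35.6% and the highest in 32.5%.

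**Figure D4:**
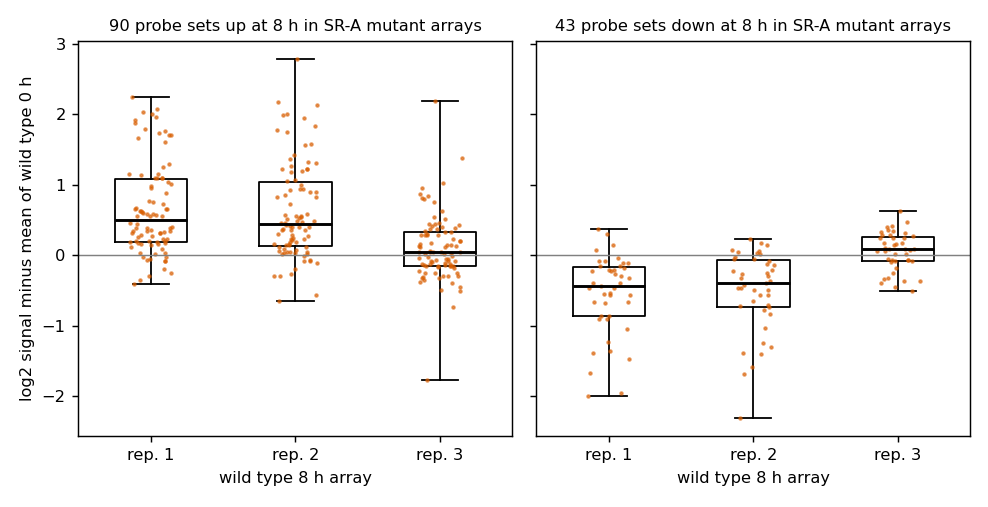
Log2 signal of each wild type 8 h array minus the mean of wild type 0 h, for the 90 probe sets that rose (left) and the 43 that fell (right) at 8 h in the arrays labelled mutant. Boxes give quartiles and median, whiskers the full range, and points single probe sets. Medians are 0.50, 0.44 and 0.04 on the left and -0.44, -0.40 and 0.09 on the right for replicates 1, 2 and 3.

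No probe set passed the test of whether the 8 h change differed between genotypes (0%, limma, smallest adjusted p = 0.133). Of the 6968 tested, 572 had an unadjusted p under 0.05. Of the 12 wild type genes 5 were among those. The 12 were chosen on wild type arrays that this test also uses, which favours them, so the 5 are a description. Lcn2 changed by 3.00 ± 0.28 in the mutant arrays, from 1670 ± 179 to 13360 ± 477 (SD, n = 3 each), against 4856 ± 1013 to 14666 ± 7672 in wild type. The 8 h means were close, but the single arrays were not. Wild type arrays at 8 h read 19246, 18944 and 5809, and mutant arrays 13492, 12831 and 13757. The difference of the Lcn2 changes was -1.58 ± 0.39 (adjusted p = 0.257). Ndrg1 changed by 1.85 ± 0.19 in the mutant arrays, to 16232 ± 2055 against 9723 ± 2834 in wild type, a difference of -0.80 ± 0.27 (adjusted p = 0.419). Slpi changed by 2.46 ± 0.28 there, a difference of -0.88 ± 0.40 (adjusted p = 0.595). Odf2 and Pdzk1ip1 did not pass in the mutant arrays, at 0.29 and -0.17, and their differences between genotypes were -1.70 ± 0.36 and 0.70 ± 0.14 (adjusted p = 0.148 and 0.135). Sat1, Plscr1, Ccl2 and Anxa1 passed there too, with 1.45, 0.67, 1.89 and 0.95.

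The other wild type times share their 0 h arrays with the 8 h comparison, so their changes are given side by side. At 2, 16 and 48 h, 40, 455 and 1042 probe sets passed against 0 h, 0.574%, 6.53% and 15%. Slpi changed by -0.78, 1.58, 1.67 and 3.40 at 2, 8, 16 and 48 h, Lcn2 by -0.75, 1.43, 2.24 and 3.03, and Serpina3n by -0.36, 1.19, 1.35 and 1.95. Of these, the values at 8, 16 and 48 h passed. Ccl2, Sat1, Plscr1 and Anxa1 had 0.86, 0.18, 0.10 and 0.06 at 2 h, none of which passed, and 1.68, 0.92, 0.67 and 0.68 at 16 h and 3.02, 1.57, 1.37 and 1.20 at 48 h, all of which passed. Of the 14 probe sets, 11 also passed in the same direction at 48 h. Odf2 had already fallen at 2 h, by 1.13, and had -0.19 at 16 h, while Wnk2 had -0.41 at 2 h and passed at 16 h with -0.54.

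A test of 16 h against 8 h uses no 0 h array, and 86 probe sets passed it, 1.23% of those tested, a count that was 41 without 8 h replicate 3 and 145 without 8 h replicate 1. Ndrg1 fell by 1.14 ± 0.19 between 8 and 16 h (adjusted p = 0.00461), to 4317 ± 726 against 4610 ± 1135 at 0 h (SD, n = 3 each), and its second probe set passed as well, with -1.08. Odf2 was higher at 16 h than at 8 h by 1.22 ± 0.25 (adjusted p = 0.0203). Csf3 fell from 2147 ± 865 at 8 h to 706 ± 114 at 16 h (adjusted p = 0.0312), which equals its 0 h level of 706 ± 172. Ndrg1, Odf2 and Csf3 were named for their 8 h values against 0 h, and this test reads the same 8 h arrays. That favours a return toward 0 h, so their p-values are a description. Calb1 fell from 880 ± 678 at 8 h to 63.7 ± 44.5 at 16 h, under the floor on all 3 arrays (adjusted p = 0.000196). Nr4a1, at 1806 ± 1677 at 8 h, read 663 ± 101 at 16 h (adjusted p = 0.189), and 16 h against 0 h passed with -2.50. For Lcn2, Slpi, Sat1, Ccl2, Anxa1, Plscr1 and Serpina3n the differences between 16 h and 8 h did not pass, with adjusted p from 0.128 to 0.916.

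**Figure D5:**
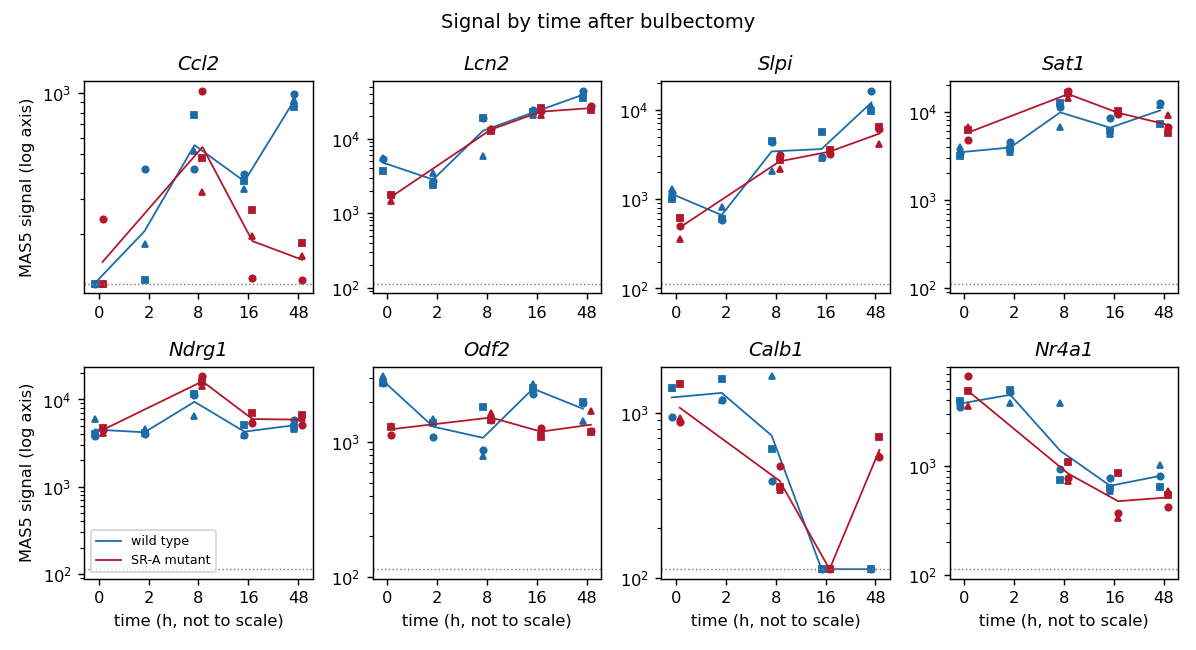
Signal on a log axis against time (0 to 48 h, not to scale) for 8 genes, with points for single arrays by replicate shape, lines through the means of log2 signals, and the floor dotted, in wild type (blue) and in arrays labelled mutant (red, 2 h not drawn). Ndrg1 is high at 8 h and back near its 0 h level at 16 h, Lcn2 and Slpi go on to 48 h, and for Calb1 and Nr4a1 the third 8 h array of wild type lies at the level of 0 h.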

How the data were processed

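The authors deposited 1 MAS5 signal intensity per probe set and array on a linear scale, per the submitters' processing notes. Its version is not given in these sources, and no detection calls were used. The 2% trimmed means of all arrays lay between 1500.7 and 1500.9. Of 12488 probe sets 66 were controls. The 25th percentile of the pooled signals, 113.7, served as a floor for the log2 values computed here, and the 6968 probe sets with at least 3 arrays over the pooled median of 572 were tested. Of all probe sets 10833 had 1 gene in the platform annotation, 396 several and 1193 none, and 10817 matched GRCm38.p6 by gene identifier. A gene's brightest tested probe set stood for it in the lists.

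The 10 groups of genotype and time were fitted over all 30 arrays in limma 3.58.1 (R 4.3.3), and its moderated tests of contrasts were two-sided and Benjamini-Hochberg adjusted at 0.05. All 30 arrays share 1 estimate of spread. On simulated arrays of 6968 probe sets the 8 h contrast recovered 85% of 2-fold and 97% of 4-fold changes and called 10 unchanged probe sets. Simulated signals were drawn independently, with no array deviating over many probe sets at once as 8 h replicate 3 did. These shares therefore do not measure what could be recovered from the real arrays. Figures used matplotlib 3.10.9 under Python 3.11.15.

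Named were all genes past the threshold, the 10 highest and 10 lowest others with no overlap and an unadjusted p under 0.01, up to 4 members a list, the 12 highest and 8 lowest past the threshold without 8 h replicate 3, and Msr1, Omp, Gap43 and Cd68. Further list members were named after their values were seen. Members and lists were chosen with earlier results of these data known. Same-numbered 8 h and 0 h arrays deviated together with correlations of 0.23, 0.18 and -0.03. For 2 of the 8 h arrays the best match was the 0 h array of the same number. Replicate numbers were not taken as pairs in the main fit, and a block for them was fitted as an alternative.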

Additional observations from a re-analysis of the deposited data

How the results depend on the processing

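The count at 8 h (14) depended most on single arrays and on the estimate of spread. It ranged from 0 to 93 when 1 of the 6 arrays was left out, with 590 at an unadjusted p under 0.05 (limma) where it was 0. It was 0 with only the 6 arrays fitted (531 at an unadjusted p under 0.05), 8 with only the wild type arrays and 22 after quantile normalization. With a block for the replicate number 12 passed, and the rises of Serpina3n and of 1 Anxa1 probe set no longer passed. The other settings gave 12 with no filter, 13 with a pseudocount of 16, 13 with a floor at the 10th percentile, 15 with a variance trend and 17 without the mutant 2 h arrays, whose Gapdh control differences were 5.12, 0.16 and 1.27. Gene lists with a gene past the threshold numbered 7, 0 to 20 with 1 array left out, 0 with only the 6 arrays and 2 with only the wild type arrays. Counting any tested probe set of a gene, a choice made after seeing the data, also gave 7. The genotype difference went from 0 to between 0 and 3 with 1 array left out and to 1 with no filter. The 16 h against 8 h count of 86 went to 22 to 145 with 1 array left out, 43 with no filter, 157 without the mutant 2 h arrays and 5 with only their 6 arrays. With 1 array left out, the change of Saa2 lay between -1.29 and 0.05, Dmbt1 -1.62 and 0.25, Pip -1.18 and 0.10, Nfil3 -0.89 and 0.01, Tnni1 -0.41 and 0.01, Omp -0.07 and 0.12, Ccr2 -0.14 and 1.14, Hspa1a -1.14 and 0.06, Hspa1b -1.02 and 0.19, Syt4 -0.57 and 0.17, Meig1 -0.08 and 0.91, Zap70 -1.17 and 0.13, Gata2 -0.10 and 0.19, and Eno3 -0.07 and 0.50. Omp gave -0.05 after quantile normalization. No other named change reversed under the alternatives run. The causes were not tested. The number of arrays limits the precision, and dim probe sets near the floor, such as Ccl2 at 0 h, give only bounds.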
